A study of Homo sapiens with 16 samples.

Results

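The genes of collagen synthesis described here were followed through ribosome profiling (Ribo-seq) and RNA-seq of 4 breast cancer cell lines: the collagen chains COL1A1, COL4A1 and COL4A2, the prolyl 4-hydroxylase subunits P4HA1, P4HA2 and P4HB, the lysyl hydroxylases PLOD1, PLOD2 and PLOD3, and the chaperone SERPINH1. These 10 genes were found by matching the transcript of each row to GENCODE release 44. All 10 were present among the 10823 transcripts of the series. The table that holds MDA-LM2 and parental libraries had 10 of them among 10799 transcripts, and the table of sgHNRNPC and sgControl cells held 9 among 8980, with COL1A1 not analysed in the latter. COL1A1 was selected on its RNA and RPF values in MDA-LM2 against parental cells, and P4HA1 was selected on its RPF and TE values in sgHNRNPC against sgControl cells, so both are described without a test in those comparisons.

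Parental MDA-MB-231 is a human triple-negative breast cancer line, labelled as poorly metastatic, and MDA-LM2 is a derivative of it selected for growth in the lungs of mice and labelled as highly metastatic to that organ. MDA-LM2 was received as an existing line, so a difference from its parent can come from the selection or from any other history of that derivative. sgControl and sgHNRNPC are MDA-MB-231 cells that carry the CRISPR interference repressor dCas9-KRAB, delivered by lentivirus, together with a control guide or with a guide against HNRNPC, a nuclear protein that binds U-rich RNA. Each line gave 2 replicate lysates, and every lysate gave 1 RNA library and 1 library of ribosome-protected footprints (RPF), which makes 16 samples. Values are read counts per transcript after normalisation by the authors, and translational efficiency (TE) is the RPF value divided by the RNA value of the same lysate. Both tables were normalised separately, so no value was tested across them.

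Collagens are built from chains with long runs of Gly-X-Y repeats, in which proline often fills the X and Y positions. In the endoplasmic reticulum, prolyl 4-hydroxylase, an enzyme of catalytic α subunits (P4HA1, P4HA2) and the β subunit P4HB, hydroxylates prolines so that the triple helix is stable at body temperature, while PLOD1, PLOD2 and PLOD3 hydroxylate lysines that later carry cross-links or sugars. SERPINH1, also called HSP47, binds the folded triple helix and escorts it to the Golgi. Type I collagen is the main fibrillar collagen of bone, skin and tumour stroma, and type IV collagen, made of COL4A1 and COL4A2 chains, forms the network of basement membranes.

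The repeat structure of the chains is visible in the coding sequences of the 3 collagen transcripts. Glycine took 26.7% of the codons of COL1A1, 28.6% of those of COL4A1 and 27.6% of those of COL4A2, against a median of 6.33% over the transcripts of the MDA-LM2 table. Proline took 19.0%, 19.5% and 16.7% of their codons, against a median of 5.43%. The 7 enzymes and chaperones held 5.70% to 7.71% glycine codons.

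COL4A1 (ENST00000375820; chr13:110148963-110307157, minus strand) and COL4A2 (ENST00000360467; chr13:110307284-110513209, plus strand) lie head to head, and 126 bases separate their first exons. This interval is shown because both genes start from it and their values are compared below. It is given on the plus strand at chr13:110307158-110307283 of GRCh38.p14, from RefSeq, with the letters CCAAT in capitals.

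COL4A1-COL4A2 interval: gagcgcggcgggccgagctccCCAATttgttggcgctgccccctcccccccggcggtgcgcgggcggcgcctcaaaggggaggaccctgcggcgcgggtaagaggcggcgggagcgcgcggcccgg

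The PLOD2 gene (ENST00000282903; chr3:146069440-146161184, minus strand, 20 exons) is the member whose RNA was called in both comparisons, so its promoter is shown as well. The 250 bases before its start, chr3:146161185-146161434 of GRCh38.p14, read 5′ to 3′ on the minus strand, hold ACGTG, the core letters of a hypoxia response element, on either strand, CCAAT and TATAA, each in capitals.

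PLOD2 promoter: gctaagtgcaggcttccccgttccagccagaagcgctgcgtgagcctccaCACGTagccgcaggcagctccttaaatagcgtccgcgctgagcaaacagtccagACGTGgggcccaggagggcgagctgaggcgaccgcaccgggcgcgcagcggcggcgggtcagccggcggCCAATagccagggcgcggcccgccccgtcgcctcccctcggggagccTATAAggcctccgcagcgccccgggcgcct

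Promoters of the same length were found in the RefSeq table for 9 of the 10 genes, all except COL1A1. ACGTG, searched on both strands, occurred in the windows of P4HA1 and PLOD2 and in 1 of 2 windows listed for SERPINH1, and 18.5% of all 35116 promoters hold it. CCAAT, on both strands, occurred in 32.0% of all promoters and TATAA, on both strands, in 18.9%. These matches are descriptions of the sequence and not measured binding.

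U-rich sites in the 3′ UTR are shown because the paper found poly(U) motifs to be enriched in the RNA that HNRNPC bound. The sites of P4HA1 and PLOD2, the members with the most matches to the pattern searched, are printed. The search, on the sense strand, was for CTTTTTT, a C followed by 6 T in DNA letters. Runs of T without a C before them were not counted, and a printed P4HA1 window starts with such a run. P4HA1 (ENST00000263556; chr10:73007224-73096974, minus strand, 15 exons) has 3 such sites in a 3′ UTR of 998 bases, and PLOD2 has 3 in a 3′ UTR of 1277 bases. The windows below run 5′ to 3′ on the minus strand of hg38, with the match in capitals, and the last site of P4HA1 lies close to the end of its transcript.

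P4HA1, chr10:73007675-73007703: tcctcccaagtCTTTTTTaaagaaagtat
P4HA1, chr10:73007489-73007517: tttttttatccCTTTTTTaaaatgacaga
P4HA1, chr10:73007224-73007241: tgatcttaaatCTTTTTT
PLOD2, chr3:146069884-146069912: tgctttgtttcCTTTTTTagaaagttcta
PLOD2, chr3:146069718-146069746: cgctccttattCTTTTTTtggggggaggg
PLOD2, chr3:146069693-146069721: agggttatttgCTTTTTTatcttcctggc

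COL1A1 and SERPINH1 have 1 such site each and the other 6 members have 0. The site of COL1A1, a C followed by a longer run of T, counts as 1. These counts cover CTTTTTT only and give neither the number of U runs in a 3′ UTR nor binding by HNRNPC, which was not tested. Of the transcripts with an annotated 3′ UTR, 42.9% hold at least 1 site in the MDA-LM2 table and 43.2% in the knockdown table, so a site is common, and 4 of 10 members is close to that share.

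In parental cells P4HB and SERPINH1 stood highest, COL1A1 lowest, and COL4A2 among the enzymes. RNA per kilobase of mRNA was highest for P4HB, at 4059 normalised reads per kb, followed by SERPINH1 at 1453 and PLOD1 at 564. P4HB stood at the 98.3rd percentile of the 8208 genes tested that have an annotated coding length. PLOD3 followed at 489 and COL4A2 at 176, then P4HA2 at 150, P4HA1 at 73.5, PLOD2 at 40.4, COL4A1 at 31.2 and COL1A1 at 2.62, and no neighbours in this order overlapped between replicates. P4HB also serves the cell as protein disulfide isomerase, and the α subunits together reached 0.0517 and 0.0585 of its RNA per kb in the parental replicates.

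Footprints per kilobase of coding sequence kept P4HB and SERPINH1 on top, at 307 and 204 in parental cells, and narrowed the range below them. PLOD3 stood at 81.7 ± 4.69 and PLOD1 at 75.5 ± 5.66 (SD, n = 2), and those values overlapped between replicates. P4HA1 at 52.7 ± 2.16 and P4HA2 at 50.8 ± 1.33 overlapped likewise, although P4HA2 had the higher RNA level per kb. Relative to the median gene, the log2 TE of P4HA1 was 1.50 ± 0.30 and that of PLOD2 1.60 ± 0.27, while P4HB stood at -1.75 ± 0.11 and COL4A2 at -1.08 ± 0.26 (SD, n = 2).

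In sgControl cells, which are MDA-MB-231 cells too but were profiled in the other table, P4HB was again the highest at 1033 normalised RNA reads per kb, and COL4A1 the lowest at 18.6. The log2 TE of P4HA1 relative to the median gene was 0.07 ± 0.24 there, that of PLOD2 -0.84 ± 0.16 and that of P4HB -0.83 ± 0.11 (SD, n = 2), and SERPINH1 stood at 1.29 in both replicates. In parental cells SERPINH1 stood at -0.87 ± 0.15. The median gene was taken over 4190 genes in sgControl cells and over 8208 in parental cells, so these log2 TE values have different references. The values of both lines are set side by side and were not tested against each other.

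**Figure D1:**
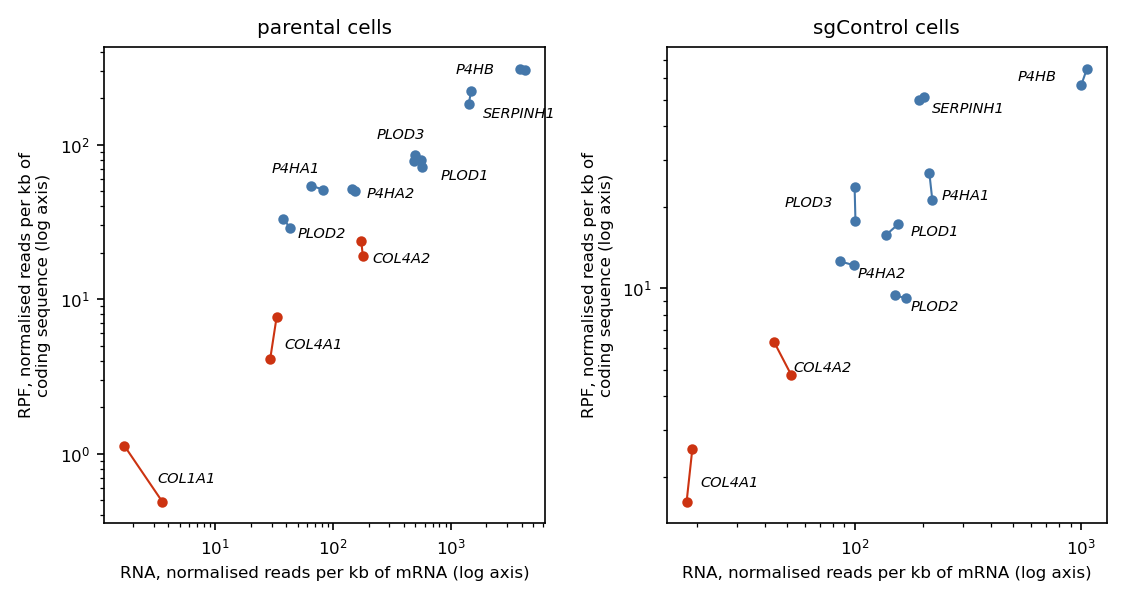
RNA per kilobase of mRNA (horizontal, log axis) against footprints per kilobase of coding sequence (vertical, log axis) in parental cells (left) and sgControl cells (right), in normalised reads. The 2 points of a gene are its 2 replicates, joined by a line. Collagen chains are red and enzymes and chaperones blue. P4HB is the highest gene in both panels, and COL1A1 (left) and COL4A1 (right) are the lowest on both axes.

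Setting MDA-LM2 against its parent asks which transcripts and footprints accompany the greater metastatic capacity of the derivative. COL1A1, selected on these values, stood near the lowest listed level in parental cells and at a middle level in MDA-LM2 cells. COL4A1 rose in RNA and footprints, PLOD2 rose and PLOD3 fell in both, and P4HA1 RNA rose while P4HA2 and P4HB did not pass the test. Over all 8393 genes tested, limma called 15.2% in RNA, 5.8% higher and 9.44% lower, and 12% in RPF, 5% higher and 7.03% lower. Among the 9 members tested, RNA was called higher for 3 (COL4A1, P4HA1, PLOD2) and lower for 1 (PLOD3), and RPF was called higher for 3 (COL4A1, COL4A2, PLOD2) and lower for 1 (PLOD3). The p-values used here come from limma with Benjamini-Hochberg adjustment over all genes tested, with a call at an adjusted p under 0.05.

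COL1A1 (ENST00000225964; chr17:50184101-50201631, minus strand, 51 exons) encodes the α1 chain of type I collagen. Its RNA values were 9.97 and 21.0 in parental cells and 580 and 879 in MDA-LM2 cells, and its RPF values were 4.95 and 2.14 against 198 and 185. Both MDA-LM2 replicates lay far above both parental replicates in both kinds of library. The ratio of the means was 47.1-fold in RNA and 54.0-fold in RPF, and the log2 changes were 5.52 ± 0.34 and 5.47 ± 0.28 (SE). Per kb of mRNA, its RNA went from the 0.0487th to the 55.0th percentile of the 8208 genes tested that have an annotated coding length. COL1A1 met the filter on low RPF values only through MDA-LM2 cells (parental mean 3.55), so its low parental rank among filtered genes is partly built in. The TE ratio was 0.497 and 0.102 in parental cells and 0.342 and 0.210 in MDA-LM2 cells, so that the parental replicates enclosed the others, and the log2 TE change was -0.05 ± 0.50 (SE). The parental footprint values are so low that the RPF change was 4.54 with 5 instead of 1 added before the logarithm.

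COL1A1 is a gene of fibroblasts, so markers of that cell type were read beside it. Of 12 fibroblast markers, 2 were analysed here, PDGFRB and FBLN1, and the others, among them COL1A2, COL3A1, DCN and LUM, were not. Their summed RNA value was 53.0 to 63.1 in parental cells and 144 to 202 in MDA-LM2 cells. FBLN1, a matrix glycoprotein, had mean RNA values of 16.9 (parental) and 153 (MDA-LM2), and those of PDGFRB were 41.1 and 20.2. FBLN1 met the filter on low values in RPF only through MDA-LM2 cells (means of 2.61 and 21.6) and PDGFRB did not meet it, so neither is given a test. All 5 markers of the mesenchymal and basal state of MDA-MB-231 (VIM, CD44, AXL, CAV1, EGFR) were present, with VIM at 31464 or more in every RNA library of this table, and the epithelial and luminal genes EPCAM and GATA3 stayed at 46.5 or less. CAV1 fell in RNA (log2 change -0.62) and RPF (-0.54), and AXL fell in RPF (-0.31). The part of other cells or of a changed cell state in the COL1A1 values was not tested, and in bulk libraries more producing cells and more RNA per cell cannot be told apart.

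Over the 8 libraries of the table, centred within RNA and within RPF, the 3 genes most like COL1A1 among 8125 compared were EMP2 (Pearson r 0.995), CCDC80 (0.995) and COL6A1 (0.994). Each of these r rests mainly on the contrast of the 2 lines. Their own changes were far smaller, with log2 RNA changes of 0.47, 1.28 and 1.66.

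Of the type IV collagen chains, COL4A1 rose in RNA and RPF, and COL4A2 was called in RPF alone. COL4A1 RNA was 217 and 191 in parental cells and 315 and 380 in MDA-LM2 cells, a log2 change of 0.76 ± 0.14 (standard error; limma adjusted p 0.0159). Its RPF values were 38.6 and 20.4 against 74.7 and 59.1, a log2 change of 1.21 ± 0.24 (adjusted p by limma 0.00044). The lines did not overlap in either library, although the parental RPF replicates stood far apart. COL4A2 RNA was 1117 and 1152 against 1262 and 1487, which gave 0.27 ± 0.12 on the log2 scale without passing (adjusted p by limma 0.176), and its RPF values of 122 and 97.7 against 139 and 161 gave 0.45 ± 0.14 (adjusted p by limma 0.0273). Without parental replicate 2, the calls of COL4A1 RNA (adjusted p by limma 0.0796) and of COL4A2 RPF (0.282) were lost, and the latter was lost without MDA-LM2 replicate 2 too (0.245).

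Per unit length, COL4A1 stood below COL4A2 in every library, whereas the secreted heterotrimer of type IV collagen holds more α1 than α2 chains. The footprint ratio of COL4A1 to COL4A2, per kb of coding sequence, was 0.324 and 0.214 in parental cells and 0.550 and 0.376 in MDA-LM2 cells. The RNA ratio, per kb of mRNA, was 0.191 and 0.163 against 0.246 and 0.252. Both ratios were higher in the 2 MDA-LM2 replicates than in the 2 parental ones. With 2 against 2 replicates, an exact two-sided permutation test cannot go below 0.333, so none was used for a ratio.

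The prolyl 4-hydroxylase subunits did not move together. P4HA1 RNA was 185 and 233 in parental cells and 325 and 376 in MDA-LM2 cells, a log2 change of 0.75 ± 0.16 (standard error; limma adjusted p 0.0212). Its RPF values of 87.1 and 82.2 against 101 and 128 did not overlap either, but the log2 change of 0.42 ± 0.15 did not pass (adjusted p by limma 0.0584). P4HA2 (chr5:132192610-132227857), the other catalytic subunit, was at 342 and 325 against 294 and 206 in RNA (log2 change -0.44, adjusted p by limma 0.143) and at 80.1 and 83.1 against 71.5 and 69.4 in RPF (-0.21, 0.447). The RNA ratio of P4HA1 to P4HA2 per kb was 0.424 and 0.562 in parental cells and 0.867 and 1.43 in MDA-LM2 cells, and the footprint ratio 1.09 and 0.990 against 1.41 and 1.85.

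P4HB (chr17:81843166-81860535), the β subunit, was lower in both MDA-LM2 replicates without passing the test. Its RNA values were 10304 and 9479 against 8278 and 6315 (log2 change -0.45, adjusted p by limma 0.101), and its RPF values 462 and 474 against 425 and 373 (-0.23, 0.118). The P4HA1 call in RNA was lost without parental replicate 1 (adjusted p by limma 0.167).

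Of the 3 lysyl hydroxylases, PLOD2 rose, PLOD3 fell and PLOD1 did not pass the test. PLOD2, which hydroxylates the telopeptides where stable cross-links form, had RNA values of 142 and 161 in parental cells and 209 and 309 in MDA-LM2 cells, a log2 change of 0.74 ± 0.20 (standard error; limma adjusted p 0.0464). Its RPF values were 75.5 and 66.0 against 133 and 160, a log2 change of 1.04 ± 0.15 (adjusted p by limma 4.23e-06), and both MDA-LM2 replicates stood clear of the parental ones. PLOD3 (chr7:101205984-101217581), which also adds sugars to hydroxylysine, went from 1363 and 1397 to 934 and 660 in RNA, a log2 change of -0.81 ± 0.17 (adjusted p by limma 0.0212), and from 174 and 189 to 130 and 115 in RPF, a log2 change of -0.56 ± 0.13 (0.00252). PLOD1 (chr1:11934717-11975537), which acts on helical lysines, did not pass in RNA (log2 change -0.26, adjusted p by limma 0.175) or RPF (-0.29, 0.153).

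The footprint ratio of PLOD2 to PLOD3, per kb of coding sequence, was 0.423 and 0.341 in parental cells and 0.994 and 1.35 in MDA-LM2 cells, so that PLOD2, well below PLOD3 in the parent, drew level with it in the derivative. The RNA ratio per kb was 0.0782 and 0.0867 against 0.168 and 0.352. PLOD2 kept its RPF call, and PLOD3 its RNA and RPF calls, with each replicate left out in turn, whereas the PLOD2 call in RNA was lost without parental replicate 1 (adjusted p by limma 0.124).

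SERPINH1 (chr11:75562253-75572783), the collagen chaperone, overlapped between the lines in both libraries. Its RNA values were 3066 and 2916 in parental cells and 3035 and 2520 in MDA-LM2 cells, and its RPF values 281 and 231 against 272 and 288. The log2 changes were -0.11 ± 0.13 in RNA and 0.13 ± 0.11 in RPF (SE; adjusted p by limma 0.583 and 0.491).

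No member passed the test of TE between MDA-LM2 and parental cells, where limma called 0.0357% of all genes. An unadjusted p under 0.05 by limma was reached by 0 of the 9 members tested and by 455 of all 8393 genes. The 9 log2 TE changes lay between -0.32 ± 0.24 (P4HA1) and 0.45 ± 0.36 (COL4A1). Logistic regression, the study's own test, which takes each normalised read as independent and uses no replicate spread, put 1 member past an unadjusted p of 0.01, P4HB (log2 TE change 0.21 ± 0.07, SE), against 5.37% of all genes. In MDA-LM2 replicate 2 the RNA of every member stood further from its parental mean than in replicate 1. This held for rises, such as PLOD2 (309 against 209), and for falls, such as PLOD3 (660 against 934). The number of members passing in RNA changed with the replicate left out, as did the number over all genes. These fits rest on a spread estimated with a single sample in 1 line. Scaling every library to equal totals moved the median log2 RNA change of all genes from -0.02 to 0.15 and the share of higher among all RNA calls from 38.1% to 66.6%, and left the 4 RNA calls of the members in place.

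**Figure D2:**
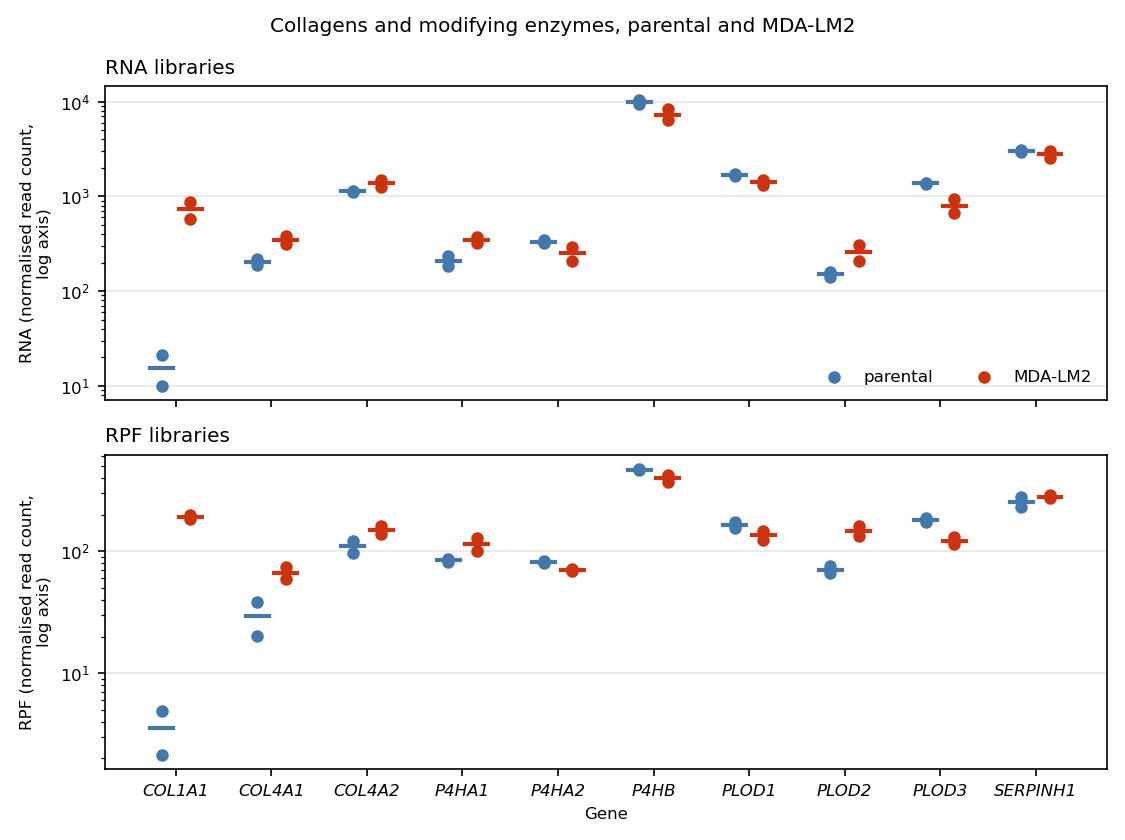
Normalised read counts of the 10 genes in each RNA library (top) and RPF library (bottom) of parental (blue) and MDA-LM2 (red) cells, on log axes. Points are single replicates and bars the mean of 2. COL1A1 moves from 9.97 and 21.0 to 580 and 879 in RNA, PLOD2 rises and PLOD3 falls in both panels, and the SERPINH1 points of the lines overlap.

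Other genes of the pathway were read from lists of chains, enzymes and partners. Of the other collagen chains, 11 of 39 were analysed and 10 tested. In RNA 5 were called higher and 1 lower, and in RPF 6 and 1. Among all genes tested, 5.8% were called higher and 9.44% lower in RNA, and 5% and 7.03% in RPF. Of type VI collagen, a beaded microfibril, COL6A1 and COL6A2 rose, with log2 RNA changes of 1.66 ± 0.11 and 1.45 ± 0.13 (SE). COL6A3 stood at 1.58 ± 0.17 in RNA. It met the filter on low RPF values only through MDA-LM2 cells, so its change is described without a test. The counts and medians of the chains include it. COL6A1 RNA went from 945 and 998 to 3148 and 3016. COL8A1, a short-chain network collagen, rose by 1.28 ± 0.12 in log2 RPF. COL13A1 was also called in both libraries and COL12A1 in RPF alone, and COL18A1, the parent chain of endostatin, was the chain that fell (log2 RNA change -0.84, RPF -0.68). These last 3 were named after their values were seen. The median log2 change of the chains was 0.68 in RNA and 0.74 in RPF, against -0.02 and -0.01 over all genes tested.

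Further enzymes and folding factors of the endoplasmic reticulum (20 of 22 analysed, 19 tested) had a median near that of all genes, -0.04 in RNA. In RNA 3 were called higher and 2 lower, and in RPF 2 higher and 6 lower. The shares over all genes tested were 5.8% and 9.44% in RNA and 5% and 7.03% in RPF. P3H4, a partner in the lysyl hydroxylase complex that PLOD1 works in, rose from 142 to 518 in RNA (log2 change 1.85 ± 0.13) and by 1.81 ± 0.32 in RPF. COLGALT2, which adds galactose to hydroxylysine, fell from 306 to 72.1 in RNA (log2 change -2.10 ± 0.23), and PDIA4, a general disulfide isomerase, fell by 0.57. P3H2, a prolyl 3-hydroxylase, rose in both libraries, while CRTAP and PDIA6 fell in RPF (log2 changes -0.53 and -0.44). COLGALT1 was called higher in RNA, and CALR and CANX were called lower in RPF together with COLGALT2 and PDIA4.

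Of the 20 factors of procollagen export, all tested, 1 was called higher in RNA (SAR1A, the GTPase of the COPII coat) and 3 in RPF (SAR1A, SCFD1, SEC16A), and 0 were called lower. Over all genes tested, 5.8% were called higher and 9.44% lower in RNA, and 5% and 7.03% in RPF. Among 6 tested genes of extracellular processing and cross-linking, FURIN, a proprotein convertase, rose from 410 to 1300 in RNA (log2 change 1.66), TGM2, a transglutaminase, by 0.82 in RNA and 0.92 in RPF, and LOXL4 by 0.49 in RNA. Of 10 tested genes of collagen degradation, 3 were higher in RNA and 1 lower. MMP1, interstitial collagenase, rose from 35.2 to 233 in RNA (log2 change 2.69), TIMP1 rose and TIMP3 fell, and CTSL was the third RNA rise. COL6A3 and MMP1 met the filter on low RPF values only through MDA-LM2 cells, and DDR1 and PFKFB4 only through parental cells. The counts of their lists include these genes, whose changes are a description and carry no weight as tests. Among 4 tested collagen receptors, ITGA1 rose (log2 RNA change 0.83), DDR1 fell (-0.96) and ITGA2 fell in RPF (-0.54).

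Partners of type IV collagen in the basement membrane went both ways. Of 11 tested, 2 laminin chains were higher in RNA and RPF (LAMA4, LAMB3) and 2 heparan sulfate proteoglycans lower (HSPG2, AGRN). Shares called over all genes tested were 5.8% higher and 9.44% lower in RNA, and 5% and 7.03% in RPF. LAMA4 rose by 1.95 and LAMB3 by 0.86 in log2 RNA, and HSPG2, or perlecan, fell from 3228 to 964 in RNA (log2 change -1.74). P4HA1, P4HA2, PLOD1 and PLOD2 are all known to respond to hypoxia, and 13 other hypoxia-responsive genes were tested and went both ways. ADM (log2 RNA change 1.64) and VEGFA (0.73) rose, SLC2A1 fell from 7058 to 2908 (-1.29), and BNIP3, NDRG1 and PFKFB4 fell too, which made 2 higher and 4 lower in RNA, and 2 higher and 4 lower in RPF.

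**Figure D3:**
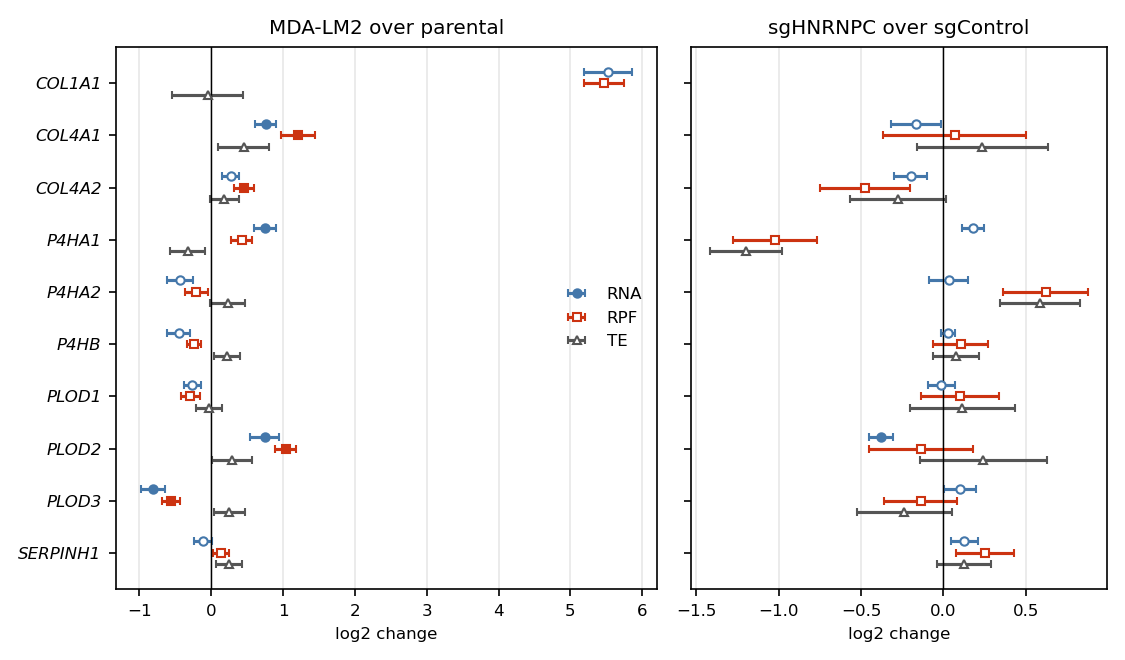
Log2 changes with standard errors in RNA (blue circles), RPF (red squares) and TE (grey triangles) for each gene, in MDA-LM2 over parental cells (left) and sgHNRNPC over sgControl cells (right, where COL1A1 was not analysed). Filled symbols passed the limma test at an adjusted p under 0.05, and open ones did not or, for COL1A1 on the left and P4HA1 on the right, were not tested. The horizontal scales differ. P4HA1 footprints stand at -1.02 on the right with RNA at 0.18.

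The comparison of sgHNRNPC with sgControl cells asks what loss of HNRNPC does to mRNA levels and translation. HNRNPC itself was read first. Its RNA was 2162 and 2146 in sgControl cells and 1147 and 1183 in sgHNRNPC cells, which is 54.1% of control, and its RPF was 73.4 and 111 against 54.4 and 67.0. Within the 9 genes analysed, P4HA1, described without a test, had lower footprints at a slightly higher RNA level. PLOD2 was called lower in RNA, and none of the other members tested was called. Over all 4283 genes tested, limma called 16% in RNA, 4.72% higher and 11.3% lower, 0.0233% in RPF and 0% in TE, with 329 genes at an unadjusted p under 0.05 in RPF and 332 in TE. Footprint values were lower in this table, with a median of 9.40 to 9.50 per library against 28.1 to 28.4 in the other, and sgHNRNPC replicate 2 held 213 transcripts at 0 in RPF against 28 to 72 in the other 3 libraries.

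P4HA1 RNA was 626 and 607 in sgControl cells and 727 and 670 in sgHNRNPC cells, a log2 change of 0.18 ± 0.07 (SE). Its RPF values were 34.0 and 42.9 against 16.8 and 19.9, which is 47.8% of control, a log2 change of -1.02 ± 0.26. The TE ratio was 0.0544 and 0.0706 against 0.0232 and 0.0298, a log2 change of -1.20 ± 0.22. In all 3 measures the lines did not overlap, and RNA and footprints stood in opposite order. P4HA1 was listed for this pattern, and the values are a description of it.

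The other catalytic subunit, P4HA2, stood the other way in footprints. Its RNA overlapped, at 221 and 191 in sgControl cells and 216 and 205 in sgHNRNPC cells, and its RPF values were 19.6 and 20.3 against 32.7 and 29.6, which gave 0.62 ± 0.26 on the log2 scale without passing (adjusted p by limma 0.545). Its log2 TE change was 0.59 ± 0.24 (adjusted p by limma 0.626). P4HA2 was the 1 of 8 members tested with an unadjusted p under 0.05 by limma in RPF (0.0227) and in TE (0.0384). Over all 4283 genes tested, 329 in RPF and 332 in TE were under 0.05 as well. The footprint ratio of P4HA1 to P4HA2, per kb of coding sequence, was 1.74 and 2.12 in sgControl cells and 0.515 and 0.674 in sgHNRNPC cells, while the RNA ratio per kb was 2.22 and 2.49 against 2.63 and 2.57. Footprints on both α subunits together, as a share of those on P4HB per kb, were 0.513 and 0.694 against 0.493 and 0.452. P4HB overlapped in both libraries, with log2 changes of 0.03 ± 0.04 in RNA and 0.10 ± 0.17 in RPF.

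PLOD2 was the member called in RNA, with values of 566 and 629 in sgControl cells and 455 and 463 in sgHNRNPC cells, a log2 change of -0.38 ± 0.07 (standard error; limma adjusted p 7.29e-05). That made 1 of 8 members tested, against 16% of all genes. The call held with each replicate left out, and without sgControl replicate 2 COL4A2 passed as well (adjusted p by limma 0.0454). Its RPF values were 21.5 and 20.9 in sgControl cells and 27.6 and 13.3 in sgHNRNPC cells, so that the sgHNRNPC replicates lay on either side of the control, and the lower one came from the library with 213 transcripts at 0. PLOD3 RNA was 284 and 281 against 305 and 301 (log2 change 0.10, adjusted p by limma 0.545), and PLOD1 overlapped in RNA and RPF.

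COL4A1 had RNA values of 125 and 118 in sgControl cells and 98.9 and 118 in sgHNRNPC cells, and footprints of 12.7 and 8.13 against 13.4 and 8.58, which lie near the filter of a mean of 10. COL4A2 RNA was 338 and 284 against 285 and 254 (log2 change -0.20, adjusted p by limma 0.183), and its RPF values were 24.5 and 32.5 against 22.7 and 17.7 (-0.47, 0.726). SERPINH1 RNA was 416 and 396 against 469 and 419 (log2 change 0.13, adjusted p by limma 0.332), and its RPF values of 64.3 and 62.7 against 75.1 and 76.6 gave 0.25 ± 0.18 (0.768). The standard error of a log2 RPF change was 0.17 to 0.43 for the 9 genes.

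**Figure D4:**
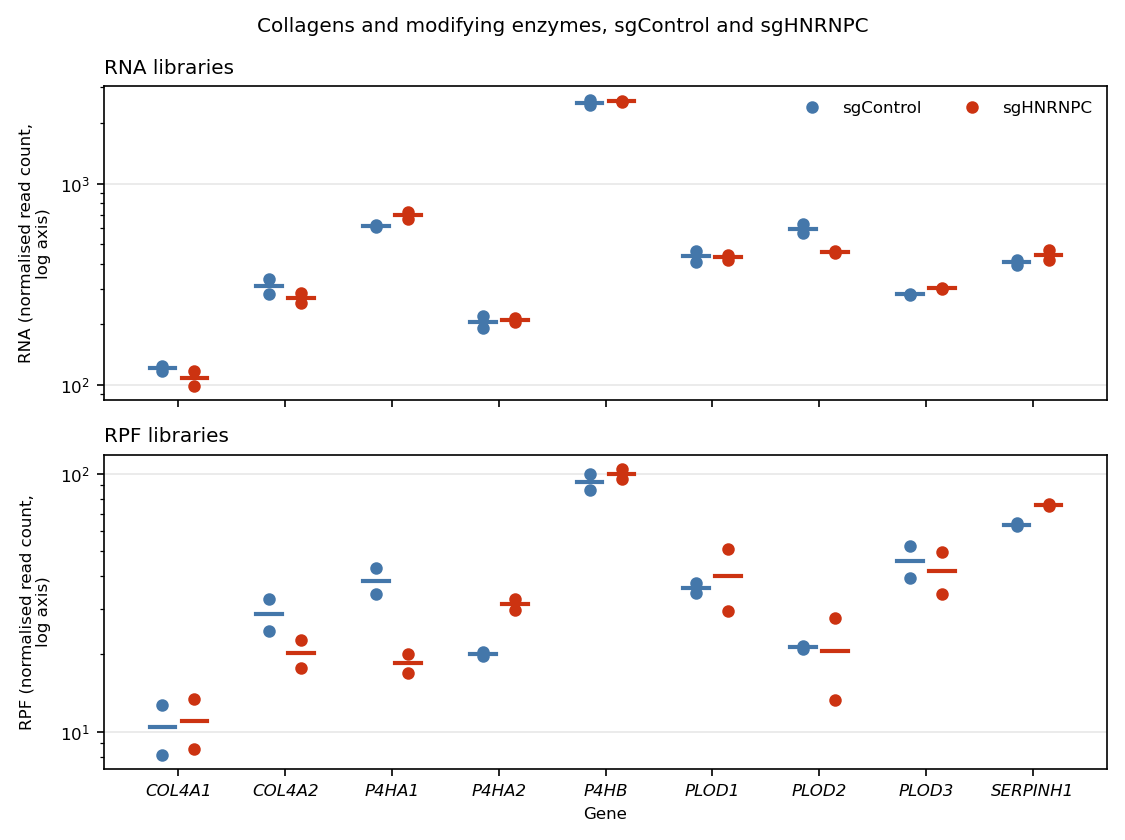
Normalised read counts of 9 genes in each RNA library (top) and RPF library (bottom) of sgControl (blue) and sgHNRNPC (red) cells, on log axes. Points are single replicates and bars the mean of 2. P4HA1 footprints fall from 34.0 and 42.9 to 16.8 and 19.9 while P4HA2 footprints stand at 19.6 and 20.3 against 32.7 and 29.6, and PLOD2 RNA falls without overlap.

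Basement membrane partners were lower in RNA after the knockdown. Of the 10 basement membrane partners tested, 8 were called lower and 0 higher, with a median log2 RNA change of -0.27 against -0.04 over all genes. Among all genes tested, 11.3% were called lower and 4.72% higher in RNA. LAMA3 fell from 383 to 236 (log2 change -0.70 ± 0.10), LAMA5 from 395 to 300 (-0.39 ± 0.09) and LAMB1 from 937 to 745 (-0.33 ± 0.06), and LAMB3, LAMC1, HSPG2, PXDN and FN1 made up the 8. In RPF the 10 had a median of -0.17 and 0 were called. Of 7 other collagen chains tested, 4 were lower in RNA, COL18A1 (-0.82 ± 0.15), COL6A1 (-0.59 ± 0.11), COL12A1 (-0.45 ± 0.11) and, named after its values were seen, COL13A1 (-0.20 ± 0.07), and 0 were called in RPF.

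The counts of the lists below stand beside 16% of all genes called in RNA, 4.72% higher and 11.3% lower. The 15 tested folding factors gave 2 higher and 4 lower in RNA. P3H2 fell (log2 RNA change -0.38), CRTAP (0.27) and FKBP9 (0.34) rose, and PDIA4, HSPA5 and CALR, chaperones and isomerases of general use, made up the lower ones, named after their values were seen. SEC13 was the 1 of 16 export factors called (log2 RNA change -0.23), TGM2 the 1 of 3 processing genes (-0.21) and ITGA2 the 1 of 2 receptors (0.16). Of 8 degradation genes, MRC2, a receptor that takes up collagen, rose by 0.51, and MMP14 (-0.27) and TIMP3 (-0.13) fell. Of 7 hypoxia-responsive genes, VEGFA rose by 0.41 and BNIP3L (-0.26) and NDRG1 (-0.24) fell. The share of higher among all RNA calls was 29.5%, and 43.2% after quantile normalisation.

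All 5 markers of the mesenchymal and basal state were present in the knockdown table, and 3 were called in RNA, VIM (log2 change -0.16) and CAV1 (-0.25) lower and EGFR (0.15) higher. EPCAM RNA stood between 50.7 and 86.9 in this table, and 0 of 12 fibroblast markers were analysed in it.

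**Figure D5:**
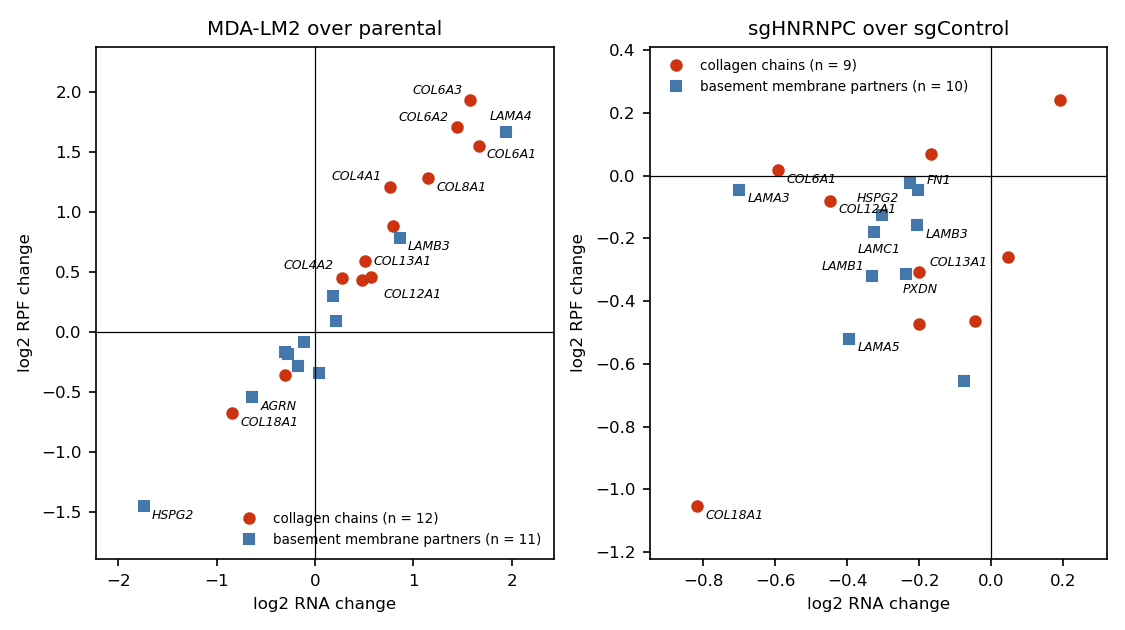
Log2 RNA change (horizontal) against log2 RPF change (vertical) of the tested collagen chains (red circles) and basement membrane partners (blue squares) in MDA-LM2 over parental cells (left) and sgHNRNPC over sgControl cells (right). COL1A1, at 5.52 and 5.47, lies outside the left panel and is left out, genes called in RNA or RPF are named, and the scales differ. On the left the chains of type VI collagen lie at the upper right and HSPG2 at the lower left. On the right 10 of 10 partners lie left of 0.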

How the data were processed

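The authors trimmed reads with cutadapt 2.3, collapsed molecular identifiers (UMI-tools), removed rRNA and tRNA reads and aligned the rest with Bowtie2 2.3.5 to mRNAs, keeping for each gene its longest coding isoform. The submitters' processing notes name hg38, and the annotation release is not given in the sources used here. Each deposited value is the normalised signal of a transcript, scaled by the authors with size factors for each kind of library. RNA values were whole multiples of 0.883 to 1.11 (tolerance 0.02), which gives 5141959 to 8193031 reads per library. The lowest RNA value was 5 or 6 such steps in each library. RPF values were not searched for such a step, and their depth is unknown. Whether the study's correction of stalling peaks was applied to them is not stated.

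The members and lists were chosen with earlier results of these data known, and 1 gene of the lists is not reported here. Transcripts were matched by identifier to GENCODE release 44 (97.9% in each table). Genes whose mean reached 10 in RNA and in RPF libraries were tested on log2(value + 1) with limma 3.58.1 (R 4.3.3; lmFit, eBayes with a trend), fitted per table, and TE as the interaction of line and library. Fold changes are on that scale and understate those of low genes. Replicates are biological duplicates per the study's methods. Group labels were read from sample titles. Besides the members and HNRNPC, the text names up to 3 called genes per list with the largest RNA and RPF changes at a mean of at least 50, all markers, and the 3 genes most like COL1A1. In several lists, further called genes were named after their values were seen. The alternatives were other added values, filters, scalings, a replicate block, robust moderation, each replicate left out, and logistic regression or within-lysate ratios for TE. The code was tested on simulated data. With 2 replicates per line, the precision given by limma rests on the spread between them, moderated by the spread of all genes tested.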

Additional observations from a re-analysis of the deposited data

How the results depend on the processing

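The count of members called in RNA between MDA-LM2 and parental cells, 4, was 2 when a mean of at least 50 was required and 2 to 9 with a replicate left out. That in sgHNRNPC cells, 1, was 0 with a mean of at least 50, since PLOD2 then fell below the filter, and 1 to 2 with a replicate left out. The RPF counts were within 1.5 times the main count throughout, at 3 to 6 in MDA-LM2 cells and 0 in sgHNRNPC cells, and TE counts were 0 except for the 1 gene by logistic regression at an unadjusted p under 0.01. The PLOD2 call in RNA was lost at a mean of at least 50 (adjusted p 0.0722) and with quantile normalisation (0.0602), and P4HA1 passed in RPF at a mean of at least 50 (0.0356) and with equal totals (0.0291).

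The signs that turned were of changes that had not been called in the library kind and comparison named. SERPINH1 RNA in MDA-LM2 cells was 0.0574 with equal totals and 0.0418 with quantile normalisation, and the COL1A1 TE change was 0.0852 with 0.5 added and 0.20 by either form of logistic regression. In sgHNRNPC cells PLOD1 RNA was 0.00634 and P4HB TE -0.0246 with quantile normalisation. With a replicate left out, the ranges in MDA-LM2 cells were -1.01 to 0.91 for COL1A1 TE, -0.126 to 0.0706 for PLOD1 TE, -0.00516 to 0.272 for SERPINH1 RPF, -0.247 to 0.0215 for SERPINH1 RNA, -0.00108 to 0.363 for COL4A2 TE and -0.00722 to 0.464 for P4HA2 TE. In sgHNRNPC cells the RNA ranges were -0.0730 to 0.136 for P4HA2, -0.0135 to 0.0704 for P4HB and -0.104 to 0.0767 for PLOD1, the RPF ranges -0.23 to 0.36 for COL4A1, -0.40 to 0.13 for PLOD3, -0.28 to 0.49 for PLOD1 and -0.63 to 0.36 for PLOD2, and the TE ranges -0.18 to 0.65 for COL4A1, -0.598 to 0.0489 for COL4A2, -0.23 to 0.46 for PLOD1, -0.27 to 0.75 for PLOD2 and -0.493 to 0.0184 for PLOD3. The cause of these shifts was not tested.

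No source used here says that a replicate number marks a shared batch, and the deviations of same-numbered libraries correlated at 0.234 (RNA) and 0.0443 (RPF) between MDA-LM2 and parental cells and at -0.00377 and 0.0281 between sgHNRNPC and sgControl cells. With the replicate number as a block, the counts in MDA-LM2 cells were 4 in RNA, 6 in RPF and 0 in TE, and those in sgHNRNPC cells 1, 0 and 0. The block added P4HA1 (adjusted p 0.0289) and P4HB (0.0239) in RPF. A count test on recovered RNA reads was planned and not run. Footprint depth is unknown, and 2 replicates per line limit every test.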

Other observations

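Parental and sgControl cells are both MDA-MB-231 cells, and the balance of related enzymes within a library differed between them. The RNA ratio of P4HA1 to P4HA2 per kb was 0.424 and 0.562 in the parental replicates and 2.22 and 2.49 in the sgControl replicates. The RNA ratio of PLOD2 to PLOD3 per kb was 0.0782 and 0.0867 against 1.50 and 1.68. For PLOD2 and PLOD3 the footprint ratios per kb of coding sequence lay closer together, at 0.423 and 0.341 against 0.533 and 0.387. These lines belong to separately normalised tables, and the lentiviral constructs, the culture and the library preparation cannot be told apart, so the values were not tested.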
